A study of Mus musculus with 12 samples.

Results

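Genes that mark lymphocytes and organised lymphoid tissue were followed in mouse kidney: 10 genes of the 21899 in the deposited expression table, found by matching the table's mouse Ensembl identifiers to the symbols Jchain, Cd79a, Cd79b, Cd4, Cd8a, Cd3e, Cd3g, Ccl21a, Ccl19 and Cxcl13. Poly(A) RNA of whole kidney was sequenced in 4 groups of 3 libraries. The lean heterozygous db/m mice and the db/db mice, which grow obese and diabetic because the leptin receptor is defective, were each given vehicle (db/m-veh and db/db-veh). In another group of db/m mice GABP was to be overexpressed (db/m-GABP-OE), and in another group of db/db mice it was to be knocked down (db/db-GABP-KD). GABP is an ETS-family transcription factor of an alpha and a beta subunit. Each group drew on kidney tissue of 6 mice, and 3 tissues were mixed for an extraction, so that 3 separate pools would need more portions than there were mice. The sources used here do not say whether libraries of a group share animals or come from 1 pool, and p-values then measure only the spread between libraries, which may be technical. The age of the mice and the means by which GABP was raised or lowered, including the tissues reached, are also not given there.

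Jchain, Ccl21a and Cd4 were chosen because they stood high in db/m-GABP-OE. Their values there, and those of the other 7 genes in the same contrast, are therefore given as a description with no test. Tests are given for the vehicle groups against each other and for db/db-GABP-KD set against db/db-veh, with the caveat that db/m-veh serves as the reference both for the contrast behind the choice and for db/db-veh.

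B cells carry the antigen receptor as a complex of membrane immunoglobulin with the signalling pair Cd79a and Cd79b. After they become plasma cells, they secrete immunoglobulin, and the joining chain Jchain links IgA and IgM into polymers that epithelia can export. T cells read antigen through a receptor whose signal passes through the CD3 chains, among them Cd3e and Cd3g, with Cd4 on helper cells and Cd8a on cytotoxic cells. Lymphoid tissue is organised by chemokines. Ccl21a and Ccl19 draw T cells and dendritic cells through the receptor Ccr7, Cxcl13 draws B cells through Cxcr5, and the CCL21 of lymphatic vessels guides cells into the lymph.

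Promoter sequence was read for the genes on which the description turns, to show what lies just before their start sites. RefSeq promoters (GRCm38.p6) were found for 8 of the 10 genes, with Cd4 and Cd79b the exceptions. The 250 bases before the start are printed for Jchain and Ccl21a, the genes with the most fragments, and for Cxcl13, the only one of the 8 with a match to a searched motif. They run 5′ to 3′ on the gene's strand, in lower case, with capitals for the match. The Jchain window is chr5:88527898-88528147 (minus strand), that of Ccl21a is chr4:42773992-42774241 (minus strand) and that of Cxcl13 is chr5:95956689-95956938 (plus strand).
Jchain: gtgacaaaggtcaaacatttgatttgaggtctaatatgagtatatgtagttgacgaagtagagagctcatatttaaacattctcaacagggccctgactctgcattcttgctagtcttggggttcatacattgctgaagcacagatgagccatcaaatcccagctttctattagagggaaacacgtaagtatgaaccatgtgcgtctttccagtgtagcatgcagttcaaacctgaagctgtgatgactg
Ccl21a: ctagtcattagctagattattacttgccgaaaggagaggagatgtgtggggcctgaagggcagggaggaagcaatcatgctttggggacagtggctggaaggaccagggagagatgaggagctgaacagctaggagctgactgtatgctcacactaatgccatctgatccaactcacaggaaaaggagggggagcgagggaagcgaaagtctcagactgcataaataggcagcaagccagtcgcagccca
Cxcl13: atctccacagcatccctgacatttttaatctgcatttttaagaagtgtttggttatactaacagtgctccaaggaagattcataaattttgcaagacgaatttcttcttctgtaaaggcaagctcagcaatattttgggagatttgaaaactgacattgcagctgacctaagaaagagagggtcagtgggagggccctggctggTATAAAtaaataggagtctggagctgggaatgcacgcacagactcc

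3 motifs were searched on both strands of these windows, and none overlapped another. The ETS core bound by GABP, written CCGGAAG, matched in 0 of the 8 promoters and in 6.91% of all 32851 RefSeq promoter windows of the same length. The octamer ATGCAAAT, known from immunoglobulin promoters, matched in 0 of 8 and in 1.60% of all windows. The TATA box TATAAA matched in 1 of 8, Cxcl13, at 46 to 41 bases before the start, and in 12.4% of all windows. The absence of a match says only that these letters are not in this window. The GC content of the windows was 42.0% for Jchain and Cxcl13, 42.8% for Cd8a and 51.6% to 58.8% for the other 5, and the median of all windows was 52.4%.

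Levels are deposited FPKM, in which the exon length of a gene and the depth of the library are divided out. The libraries held 6.78 to 9.70 M fragments (M, mega), of which the 13 mitochondrially encoded genes took 47.9% to 86.0%, leaving 1.08 to 4.39 M for nuclear genes. Nuclear genes therefore shifted as a whole, with a median log2 fold change over the 12897 genes tested of -0.24 between the vehicle groups (db/db-veh minus db/m-veh), 0.38 for db/m-GABP-OE minus db/m-veh and 0.42 for db/db-GABP-KD minus db/db-veh. Values after median of ratios scaling, which brings these medians to 0.01, 0.04 and 0.00, are given where they matter. Library db/db-GABP-KD 1 stood apart, which had a mean correlation of 0.876 with its 2 group mates, where the other 11 libraries had 0.911 to 0.965. Gabpa, the DNA-binding subunit, was at 2.00 ± 0.324 FPKM (SD, n = 3) in db/db-veh and 4.23 ± 2.10 in db/db-GABP-KD, so the libraries labelled GABP-KD did not have less of it, whereas db/m-veh had 2.22 ± 0.388 and db/m-GABP-OE 3.50 ± 0.183. After scaling Gabpa was at 2.328 ± 0.4945 in db/m-veh and 2.694 ± 0.1133 in db/m-GABP-OE, a difference smaller than the db/m-veh SD. The scaled values were 2.833 ± 1.109 in db/db-veh and 3.522 ± 0.4607 in db/db-GABP-KD. As a check of the tissue, proximal tubule genes, 7 of 7 detected, summed to 187 to 984 FPKM over the 12 libraries. The adrenal cortex enzymes Cyp11b1, Cyp11b2, Cyp11a1 and Cyp21a1 were at 0 in all of them. Star, the remaining gene of the adrenal cortex list, was found in all 12, at 0.0566 to 0.789 FPKM.

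In db/m-GABP-OE, 8 of the 10 genes lay above every db/m-veh library in all 3 libraries, all but Cd79b and Cd8a, where 30.4% of the genes tested did so (every library higher, as deposited). After median of ratios scaling 5 did, namely Jchain, Cd4, Cd3g, Ccl21a and Ccl19, against 9.72% of genes. Since the contrast was used to choose genes, nothing is read from these counts. Whole kidney was sequenced, so more cells of a type and more RNA per cell cannot be told apart in any value given here.

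**Figure D1:**
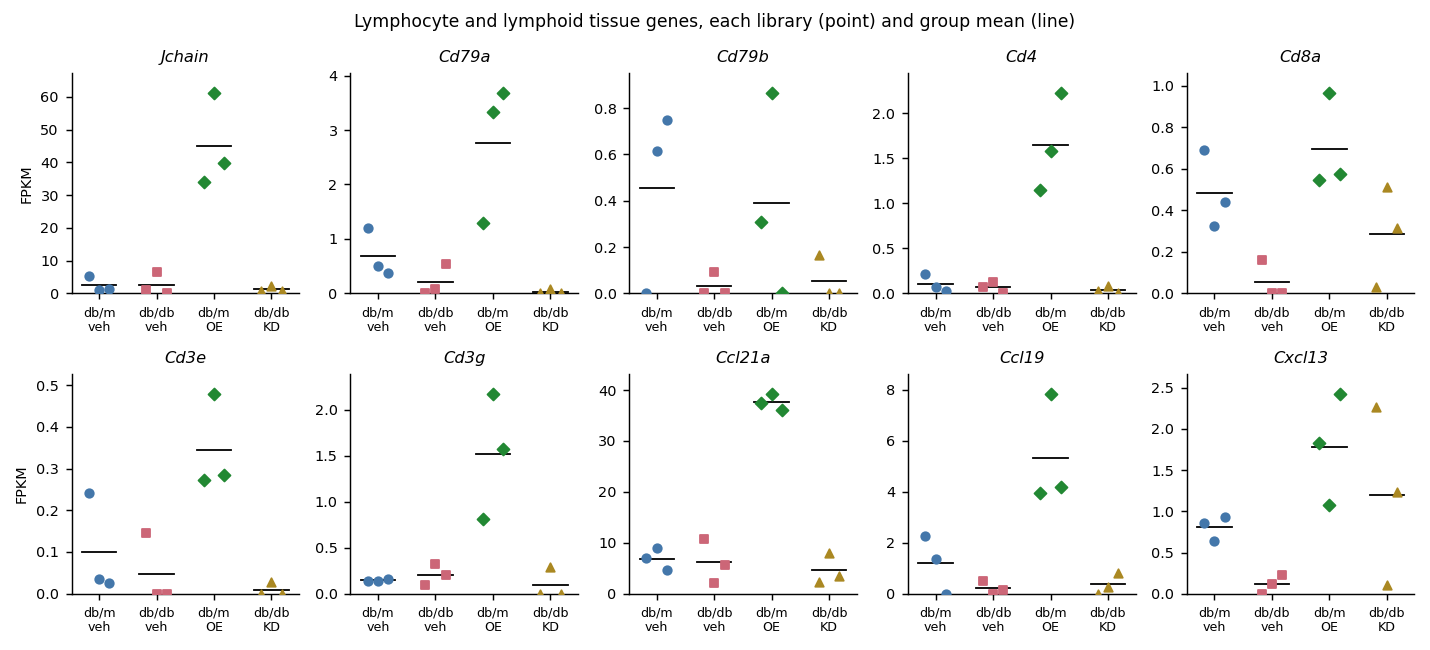
FPKM (vertical axes, each with its own range) of the 10 genes in each library (points) of the 4 groups, with the group mean as a line. Jchain, Cd4, Cd3g, Ccl21a and Ccl19 were higher in all 3 db/m-GABP-OE libraries than in the other 9, Cd79a and Cd3e were so by only 1.08 and 1.125 times, while Cd79b and Cd8a overlapped db/m-veh.

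Jchain (ENSMUSG00000067149, GRCm38 chromosome 5, 88519809 to 88527891, minus strand), the joining chain of polymeric immunoglobulin, had the widest gap in fold between db/m-GABP-OE and db/m-veh. It stood at 34.1, 61.1 and 39.9 FPKM in the 3 db/m-GABP-OE libraries and at 5.30, 1.05 and 1.32 in db/m-veh. The db/db-veh libraries had 1.11, 6.65 and 0.207, and in db/db-GABP-KD 0.612, 2.18 and 0.848. The lowest db/m-GABP-OE library was 5.13 times the highest of the other 9, db/db-veh 2, and those 9 overlapped between groups. The ratio of the means of db/m-GABP-OE and db/m-veh was 17.6, or 13.1 after median of ratios scaling. It rests on 3130 against 171 fragments (ratio of pooled fragments 16.9).

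Cd79a (ENSMUSG00000003379, chromosome 7, 24897381 to 24902197, plus strand) and Cd79b (ENSMUSG00000040592, chromosome 11, 106311341 to 106314762, minus strand) encode the signalling pair of the B-cell receptor. Cd79a was at 1.29, 3.32 and 3.68 FPKM in db/m-GABP-OE and at 1.20, 0.504 and 0.367 in db/m-veh. The db/db-veh libraries had 0, 0.0891 and 0.536, and in db/db-GABP-KD 0, 0.0800 and 0. The first db/m-GABP-OE library thus lay only 1.08 times above the highest db/m-veh library, and the groups overlapped after median of ratios scaling, with a ratio of means of 4.002 as deposited and 2.91 scaled. Cd79b, its partner in the complex, was at 0.310, 0.864 and 0 FPKM in db/m-GABP-OE and at 0, 0.615 and 0.748 in db/m-veh. It was 0, 0.0907 and 0 in db/db-veh and 0.166, 0 and 0 in db/db-GABP-KD. Both lean groups held 16 Cd79b fragments in all (ratio of pooled fragments 0.926), and their libraries overlapped. A library at 0 allows up to 3 fragments. Within a library, Cd79a was 4.17 and 3.85 times Cd79b in db/m-GABP-OE 1 and 2, and 0.819 and 0.491 times in db/m-veh 2 and 3, on the FPKM scale.

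Among the other genes of the B lineage the levels were low and uneven between libraries. Of 15 B-cell genes other than the 10 followed, 5 were tested, and 1 was called higher in db/m-GABP-OE (limma on log2(FPKM + 0.5), Benjamini-Hochberg adjusted p under 0.05, called higher for 1.85% of all genes tested). It was Cd72, a B-cell surface receptor, with a log2 fold change of 1.29 (SE 0.31, adjusted p = 0.043), and it was not called after median of ratios scaling (0.95, adjusted p = 0.394) or with no filter, and was called in 5 of the 12 fits that left out 1 library. Of the 5, Spib and Fcrla passed the filter on low values only with the help of db/m-GABP-OE libraries, so no median over the 5 is given. Ms4a1, which encodes the B-cell surface protein CD20, was at 0.0358, 0.450 and 0.0376 FPKM in db/m-GABP-OE and so highest in db/m-GABP-OE 2. Of the 15 genes 7 were highest in that library of the group, 5 in the library numbered 1 and 3 in the library numbered 3. The summed level of the 15 was 6.69 to 13.1 FPKM in db/m-GABP-OE, 2.84 to 3.82 in db/m-veh, between 1.32 and 2.09 in db/db-veh and 2.05 to 3.07 in db/db-GABP-KD, where Ms4a1, Cd22, Pou2af1 and Fcrla were among the genes at 0.

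Of the plasma cell genes other than Jchain, those tested were not called in db/m-GABP-OE, and Tnfrsf17, Prdm1 and Irf4 were not tested. Of the 18 genes on the list of plasma cell and immunoglobulin genes 7 were analysed here, Jchain among them, and those of the immunoglobulin constant regions were not. Mzb1, a chaperone of immunoglobulin assembly, was at 1.37, 0.339 and 1.44 FPKM in db/m-GABP-OE and at 0.900, 0.483 and 0.264 in db/m-veh, so the groups overlapped (log2 fold change 0.51, SE 0.43, limma adjusted p = 0.565). Derl3, of the endoplasmic reticulum, had a log2 fold change of 0.29 (SE 0.36, limma adjusted p = 0.675). Of the 3 such genes tested, Mzb1, Derl3 and Sdc1, 0 were called in either direction (limma, and voom on recovered fragments), with 0 at an unadjusted p under 0.05. Limma called 1.9% of all genes tested in either direction, so nothing is read from 0 of 3. Prdm1 was at 0.271 to 0.388 FPKM in db/m-GABP-OE and at 0.0768 to 0.210 in db/m-veh, without overlap. The ratio of Jchain to Mzb1 within a library was 24.9, 180.1 and 27.8 for db/m-GABP-OE, 5.89, 2.17 and 4.99 for db/m-veh, and 0.276 to 62.3 for db/db-veh. The highest of these outside db/m-GABP-OE was in db/db-veh 2, where Jchain was also high. Since Jchain was chosen for its height in db/m-GABP-OE, nothing is read from this ratio there. The 6 plasma cell genes other than Jchain summed to 5.07 to 5.75 FPKM in db/m-GABP-OE beside 3.62 to 5.26 in db/m-veh. For db/db-GABP-KD the sum was 3.06 to 5.34, and for db/db-veh 1.44 to 3.48. Sdc1 alone gave 2.838 to 5.035 FPKM of the db/db-GABP-KD sums and 1.83 to 3.22 of those of db/m-GABP-OE. Its level was 1.12 to 4.39 among db/m-veh libraries and 1.02 to 1.08 among those of db/db-veh. The sums thus follow Sdc1 to a large part and say little on the remaining genes. Tnfrsf17, the receptor BCMA of plasma cells, was at 0.272 to 0.379 FPKM in db/m-GABP-OE and at 0.4025, 0 and 0 in db/m-veh. It was 0.181, 0 and 0 in db/db-veh and 0 in all 3 db/db-GABP-KD libraries. These groups held 7, 3, 1 and 0 fragments of it in that order.

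**Figure D2:**
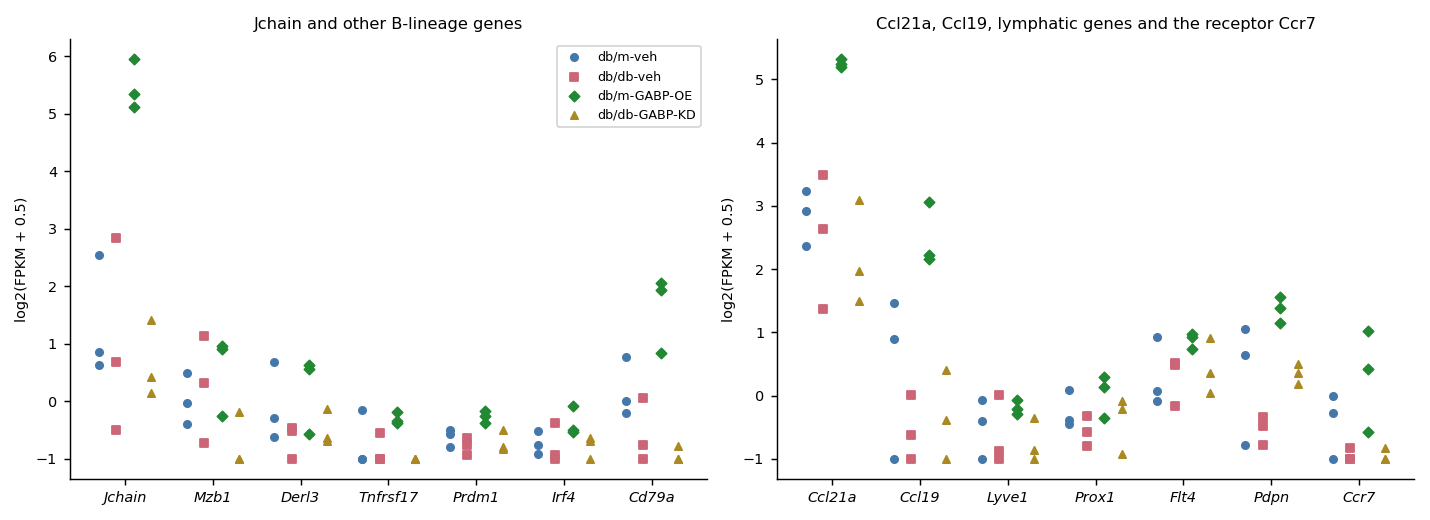
Level on the log2(FPKM + 0.5) scale (vertical axes) of Jchain beside other B-lineage genes (left) and of Ccl21a and Ccl19 beside lymphatic genes and their receptor Ccr7 (right), 1 point for each library, with shape and colour for the group. Jchain, Ccl21a and Ccl19 lie apart in db/m-GABP-OE, as do Cd79a, Prdm1 and Pdpn by a narrower gap. Mzb1, Derl3, Tnfrsf17, Irf4, Lyve1, Prox1, Flt4 and Ccr7 overlap between groups.

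Of the T-lineage genes, Cd4 (ENSMUSG00000023274, chromosome 6, 124864692 to 124888221, minus strand), the coreceptor of helper T cells, was separated furthest. It was at 1.15, 1.58 and 2.22 FPKM in db/m-GABP-OE and at 0.217, 0.0728 and 0.0266 in db/m-veh. The db/db-veh libraries had 0.0731, 0.129 and 0, and in db/db-GABP-KD 0.0294, 0.0867 and 0. The lowest db/m-GABP-OE library was 5.32 times the highest of the other 9. The ratio of means to db/m-veh was 15.7, or 11.4 after median of ratios scaling, from 181 against 11 fragments (ratio of pooled fragments 15.2). Cd4 passed the filter on low values through its 3 db/m-GABP-OE libraries alone.

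Cd8a (ENSMUSG00000053977, chromosome 6, 71373427 to 71379173, plus strand), the coreceptor of cytotoxic T cells, showed no such gap. It was at 0.548, 0.963 and 0.576 FPKM in db/m-GABP-OE and at 0.692, 0.323 and 0.442 in db/m-veh, and these groups overlapped. The db/db-veh libraries had 0.162, 0 and 0, and in db/db-GABP-KD 0.0326, 0.513 and 0.313. The ratio of means of db/m-GABP-OE and db/m-veh was 1.43, or 1.07 after median of ratios scaling (70 against 46 fragments, ratio of pooled fragments 1.41). Cd4 was 2.10, 1.65 and 3.86 times Cd8a within the db/m-GABP-OE libraries and 0.314, 0.226 and 0.0601 times in db/m-veh. The db/m-veh libraries held 8, 2 and 1 fragments of Cd4. Since Cd4 was chosen for its rise in db/m-GABP-OE, nothing is read from this difference in order.

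The CD3 chains lay between these. Cd3g (ENSMUSG00000002033, chromosome 9, 44969572 to 44980431, minus strand) was at 0.813, 2.17 and 1.57 FPKM in db/m-GABP-OE and at 0.134, 0.135 and 0.164 in db/m-veh. It was 0.0902, 0.318 and 0.199 in db/db-veh and 0, 0.285 and 0 in db/db-GABP-KD. The lowest db/m-GABP-OE library was 2.56 times the highest of the other 9, and the ratio of means to db/m-veh was 10.5, or 7.74 scaled. Cd3e (ENSMUSG00000032093, chromosome 9, 44998740 to 45009627, minus strand) had lower values, 0.271, 0.480 and 0.285 in db/m-GABP-OE and 0.241, 0.0360 and 0.0262 in db/m-veh. It was 0.145, 0 and 0 in db/db-veh and 0, 0.0286 and 0 in db/db-GABP-KD. With 39 against 11 fragments its ratio of pooled fragments was 3.28. Cd3e was not tested, since it reached 0.3 FPKM in 1 library. An antisense gene lies over its locus in the annotation, and the sources used here do not give the strand setting of the authors' counting.

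Some of the other T-cell genes were also higher in db/m-GABP-OE. Of 20 further T-cell genes, 12 were tested and 5 were called higher, where 1.85% of all genes tested were: Thy1, Cd2, Cd8b1, Lck and Tcf7. Thy1, a surface protein of mouse T cells that fibroblasts and neurons also make, rose by 2.49 on the log2 scale (SE 0.39, limma adjusted p = 0.00474). Cd2, an adhesion receptor of T and NK cells, rose by 1.63 (SE 0.29, limma adjusted p = 0.00868). Cd8b1, which pairs with Cd8a in the cytotoxic coreceptor, rose by 1.496 (SE 0.28, limma adjusted p = 0.0118). It was at 1.49, 1.25 and 1.33 FPKM in db/m-GABP-OE and at 0, 0.297 and 0.217 in db/m-veh, so the partner genes Cd8a and Cd8b1 differed in whether the groups overlapped. Of the 12, 8 passed the filter only with the help of db/m-GABP-OE libraries, Cd2 and Cd8b1 among them, so no median over the 12 is given. With no filter 9 of the 20 were called higher, these 5 included. After median of ratios scaling 0 of the 12 were called (called higher for 0.163% of all genes tested). Without db/m-veh 3 or without db/m-GABP-OE 2, 1 was called (Thy1), as with voom, and without db/db-GABP-KD 1 the count was 7. The 20 genes summed to 15.9 to 22.01 FPKM in db/m-GABP-OE, 2.88 to 4.11 in db/m-veh, between 1.78 and 3.02 in db/db-veh and 2.23 to 5.47 in db/db-GABP-KD. Foxp3 and Ctla4, genes of regulatory T cells, were at 0 in all db/m-veh libraries.

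The chemokine Ccl21a (ENSMUSG00000094686, chromosome 4, 42772860 to 42773993, minus strand) was the most even of the 10 genes within db/m-GABP-OE. It stood at 37.4, 39.3 and 36.0 FPKM there, a coefficient of variation of 4.44% against 31.5% to 112% for the other 9. In db/m-veh it was 7.04, 8.94 and 4.68, in db/db-veh 10.7, 2.09 and 5.69, and in db/db-GABP-KD 2.31, 8.04 and 3.43. The lowest db/m-GABP-OE library was 3.37 times the highest of the other 9. The ratio of means to db/m-veh was 5.46, or 3.89 after median of ratios scaling, from 895 against 147 fragments (ratio of pooled fragments 5.64). Ccl21b, a nearly identical copy, is listed at 0 in all 12 libraries, and reads from the copies could have been assigned to 1 of them, so the value of Ccl21a is uncertain to that extent. A gene of the opposite strand, 4930578G10Rik, spans the loci of Ccl21a and Ccl19 and reached 0.571 FPKM at most.

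Ccl19 (ENSMUSG00000071005, chromosome 4, 42754525 to 42756577, minus strand), the other ligand of Ccr7, was at 3.96, 7.84 and 4.16 FPKM in db/m-GABP-OE and at 2.27, 1.35 and 0 in db/m-veh. It was 0.510, 0 and 0.1502 in db/db-veh and 0, 0.269 and 0.820 in db/db-GABP-KD. All 3 db/m-GABP-OE libraries were above the other 9, the lowest by 1.74 times, and the ratio of means to db/m-veh was 4.40, or 3.10 scaled. Cxcl13 (ENSMUSG00000023078, chromosome 5, 95956951 to 95961068, plus strand), the ligand of Cxcr5, was at 1.83, 1.07 and 2.43 in db/m-GABP-OE and at 0.856, 0.638 and 0.931 in db/m-veh. It was 0, 0.113 and 0.226 in db/db-veh and 2.26, 0.101 and 1.24 in db/db-GABP-KD. Its db/m-GABP-OE libraries overlapped those of db/db-GABP-KD, and after median of ratios scaling also those of db/m-veh, with a ratio of means of 2.20 as deposited and 1.64 scaled.

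The receptors of these chemokines were scarce. Ccr7 was at 0.168, 0.834 and 1.53 FPKM in db/m-GABP-OE and at 0.498, 0 and 0.325 in db/m-veh, and was not called (log2 fold change 0.71, SE 0.33, adjusted p = 0.326 in limma). Ccr7 passed the filter on low values only with the help of db/m-GABP-OE libraries. Cxcr5 reached 0.210 FPKM at most and was not tested. Of the 19 further genes for lymphoid chemokines, receptors and organisers, 8 were tested and 1 was called higher in db/m-GABP-OE (1.85% of all genes tested were). This was Cxcl12, a chemokine that many stromal cells make, at 38.2, 44.8 and 63.1 FPKM against 15.3, 12.1 and 5.47 in db/m-veh (log2 fold change 2.19 with SE 0.54, adjusted p = 0.0484 in limma). It was not called after median of ratios scaling (1.75, adjusted p = 0.479) or with no filter, and was called in 4 of the 12 fits that left out 1 library. Ltb, the membrane-bound lymphotoxin that organises lymphoid tissue, was at 3.07, 4.08 and 4.76 against 0.866, 0.678 and 1.27 FPKM, without overlap, and its adjusted p of 0.0508 in limma missed the threshold. Glycam1 and Chst4, which serve the vessels through which lymphocytes enter lymph nodes, were at 0 in all 12 libraries, and Madcam1 was at 0.144 FPKM in db/m-GABP-OE 2 and 0 in the other 2.

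The tested genes of lymphatic endothelium, which leave out Ccl21a, did not pass the test. Of 7 such genes 6 were tested and 0 were called in db/m-GABP-OE by limma or voom, and 2 had an unadjusted p under 0.05 in limma. Of the 6, Lyve1 and Mmrn1 passed the filter on low values only with the help of db/m-GABP-OE libraries. Lyve1, the hyaluronan receptor of lymphatic vessels, had a log2 fold change of 0.30 (SE 0.30, limma adjusted p = 0.612). Prox1, the transcription factor that sets lymphatic identity, had 0.27 (SE 0.27, limma adjusted p = 0.623). As deposited, Pdpn and Vegfc were higher in every db/m-GABP-OE library than in db/m-veh, though not called. Pdpn was at 1.706, 2.098 and 2.435 FPKM against 1.565, 0.0808 and 1.061. Vegfc was at 1.628, 2.398 and 1.806 against 1.116, 0.719 and 1.18. The libraries of these groups overlapped for Lyve1, Prox1, Flt4 and Mmrn1. The ratio of Ccl21a to Lyve1 within a library was 82.2 to 124 in db/m-GABP-OE and 19.8 and 18.2 in the 2 db/m-veh libraries with a Lyve1 fragment, and it reached 127.5 in db/db-veh 3. Ccl21a was chosen for its height in db/m-GABP-OE, so nothing is read from its ratio to Lyve1 there. The 7 lymphatic genes summed to 6.25 to 7.24 FPKM in db/m-GABP-OE, 2.76 to 4.48 in db/m-veh, between 1.35 and 3.17 in db/db-veh and 2.38 to 3.53 in db/db-GABP-KD. The sums of db/m-GABP-OE and db/m-veh did not overlap after scaling either, at 4.945 to 5.443 against 3.18 to 4.575.

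Markers of other cells also stood higher in db/m-GABP-OE, where limma called 1.85% of all genes tested higher. The 10 pan-leukocyte genes summed to 50.7 to 77.5 FPKM there and 17.0 to 20.5 in db/m-veh, with 4 of 10 called higher (Laptm5, Cd52, Ptprc and Cd48). Ptprc, the common leukocyte antigen CD45, was at 1.55, 1.78 and 0.814 FPKM against 0.442, 0.200 and 0.246 (log2 fold change 1.22, SE 0.26, limma adjusted p = 0.023). Of 13 macrophage and monocyte genes 5 were called higher (Ccr2, Mrc1, C1qc, Itgam and C1qa), and their sum was 137 to 249 against 31.7 to 37.2. Ccr2, the receptor that brings monocytes into tissue, had a log2 fold change of 1.89 (SE 0.33, limma adjusted p = 0.00857).

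Of 4 dendritic cell genes tested 2 were called higher (1.85% of all genes tested were), Itgax, which encodes CD11c, and the lectin Cd209a. These 2 were also called after median of ratios scaling (adjusted p = 0.0439 and 0.0358, limma), where 0.163% of all genes tested were called higher. The sum over 8 dendritic cell genes was 8.34 to 12.2 FPKM in db/m-GABP-OE and 1.60 to 3.39 in db/m-veh. Of 5 NK and cytotoxic cell genes tested 1, the chemokine Ccl5, was called higher (log2 fold change 2.30, SE 0.44, limma adjusted p = 0.0131), while Gzma, Ncr1 and Klrb1c were at 0 in db/m-GABP-OE. The sum over 13 such genes was 8.79 to 13.3 FPKM against 2.03 to 3.59 in db/m-veh. The called leukocyte, macrophage and cytotoxic genes were not called after the scaling. With 1 library left out, 1 to 7 pan-leukocyte, 0 to 8 macrophage and 0 to 1 cytotoxic genes were called, each list at its lowest without db/m-GABP-OE 2 and the first and last also without db/m-veh 3, while Itgax and Cd209a were called in all 12 such fits, though not with voom. Ptprc, Itgam, Ccr2, Itgax and Cd209a passed the filter only with the help of db/m-GABP-OE libraries, and were called with no filter as well, on FPKM as deposited. Ly6c2, Prf1 and Tbx21 also passed it only in that way, and were not called in the filtered fit. The fit after scaling kept the filtered genes, so the scaled calls of Itgax and Cd209a depend on that filter.

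**Figure D3:**
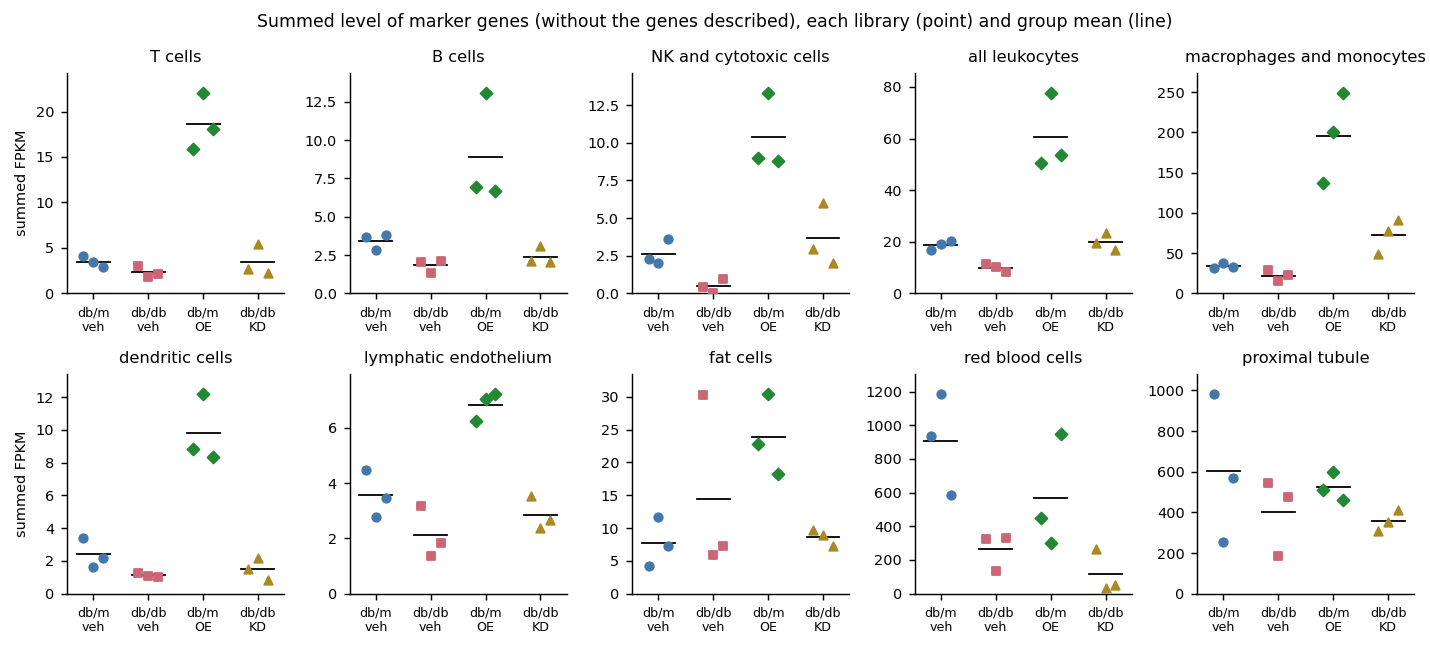
Summed FPKM (vertical axes, each with its own range) of the marker genes of 10 cell types, without the 10 genes described, in each library (points) of the 4 groups, with the group mean as a line. In db/m-GABP-OE the T-cell sum was 15.9 to 22.01 against 2.88 to 4.11 in db/m-veh, and the macrophage sum 137 to 249 against 31.7 to 37.2, while the proximal tubule sums of these groups overlapped.

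Markers of fat, blood and nephron were set beside these. The 7 fat cell genes summed to 18.2 to 30.5 FPKM in db/m-GABP-OE and 4.16 to 11.7 in db/m-veh, with the defining gene Adipoq at 0.672 to 0.843 and at 0 respectively. Of 4 tested 1, Cfd, was called higher (log2 fold change 3.42, SE 0.79, limma adjusted p = 0.0355), where 1.85% of all genes tested were. Cfd was called in 6 of the 12 fits with 1 library left out and not after scaling or with no filter. The fat cell sums of these groups overlapped after scaling, at 13.7 to 23.36 against 4.246 to 14.19. In db/db-veh 1 the fat cell sum was 30.3. Red blood cell genes summed to 303 to 948 in db/m-GABP-OE and 584 to 1188 in db/m-veh, with 0 of 7 called. Proximal tubule genes summed to 463 to 597 and 254 to 984, with 0 of 7 called, and 0 of 8 genes of other nephron and kidney cells were called. The part of fat, of other leukocytes or of the composition of the pooled tissue in the levels of the 10 genes was not tested.

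The effect of diabetes without a GABP treatment was asked by comparing db/db-veh with db/m-veh. Of the 9 genes tested 0 were called, where 0.093% of the genes tested were (12 genes, with 1489 at an unadjusted p under 0.05), and 3 of the 9, Cd8a, Cxcl13 and Cd79a, had an unadjusted p under 0.05. Of the 9, Cd79b, Cd4 and Cd3g passed the filter only with the help of db/m-GABP-OE libraries, so for these 3 the fragments are given in place of a test, and 6 are left. After median of ratios scaling 0 were called too, where 0.171% of the genes tested were. The lowest p-values belonged to Cd8a and Cxcl13, whose 3 db/db-veh libraries all lay below the 3 of db/m-veh, under both scalings. The other 8 genes overlapped. All libraries lower was found for 14.4% of the genes tested as deposited and 9.03% scaled. Cd8a had a log2 fold change of -0.83 (SE 0.27, 95% interval -1.40 to -0.25, limma adjusted p = 0.259), and -0.84 scaled (adjusted p = 0.240). It rests on 4 fragments against 46 (ratio of pooled fragments 0.0992, exact 95% interval 0.0259 to 0.272). Such intervals cover counting error only, since PCR copies cannot be told from separate molecules. Cxcl13 had -1.10 (SE 0.42, 95% interval -1.99 to -0.21, limma adjusted p = 0.317), and -1.03 scaled (adjusted p = 0.278), from 3 fragments against 24 (ratio of pooled fragments 0.143, exact 95% interval 0.0275 to 0.470). Over the alternatives tried the adjusted p was 0.104 to 0.734 for Cd8a and 0.118 to 0.807 for Cxcl13.

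The remaining genes gave wide intervals in that comparison. Cd79a had a log2 fold change of -0.76 (95% interval -1.52 to -0.0030, limma adjusted p = 0.431). Ccl19 had -0.99 (95% interval -2.08 to 0.11, limma adjusted p = 0.488), with 4 fragments in db/db-veh and 26 in db/m-veh. Jchain had -0.33 (95% interval -1.75 to 1.08) and Ccl21a -0.35 (-1.42 to 0.72), with limma adjusted p of 0.900 and 0.856. The db/db-veh and db/m-veh libraries held 1 and 16 fragments of Cd79b, 6 and 11 of Cd4, and 15 and 12 of Cd3g. In the marker lists 0 genes were called in any, as deposited or scaled. Nkg7, a granule protein of NK and cytotoxic T cells, was at 0 in all 3 db/db-veh libraries and at 1.56, 0.161 and 1.29 FPKM in db/m-veh (log2 fold change -1.43 with SE 0.42, adjusted p = 0.245 in limma). The pan-leukocyte sum was 8.35 to 11.3 FPKM in db/db-veh and 17.0 to 20.5 in db/m-veh, without overlap as deposited, but after scaling the groups overlapped, at 10.36 to 19.41 against 17.34 to 23.28. The NK and cytotoxic sum, at 0.0502 to 0.972 against 2.03 to 3.59, did not overlap under either scaling. The part of these sums in the values of Cd8a and Cxcl13 was not tested.

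Libraries labelled GABP-KD were compared with db/db-veh to ask what lowering GABP does in the diabetic kidney, bearing in mind the Gabpa levels given above. Of the 9 genes tested, 6 of which passed the filter without db/m-GABP-OE libraries, 0 were called. Over all genes tested limma called 0%, with 1839 at an unadjusted p under 0.05. Scaling by median of ratios gave 5 called genes (0.0388% of those tested), none of the 9, and voom on recovered fragments 0. All 10 genes overlapped between the groups, where 17.3% of genes tested had every library higher and 0.822% every library lower. Cxcl13, the only one of the 9 with an unadjusted p under 0.05, had a log2 fold change of 1.23 (SE 0.42, 95% interval 0.34 to 2.12, limma adjusted p = 0.344). It held 33 fragments against 3 (ratio of pooled fragments 10.1, exact 95% interval 3.18 to 51.7), and 22 of the 33 came from db/db-GABP-KD 1, the library that stood apart. Without that library the log2 fold change was 0.75 (adjusted p = 0.552), and after median of ratios scaling it was 0.96 with all libraries (adjusted p = 0.659). Cd8a, the next by p, had 0.47 (SE 0.27, 95% interval -0.10 to 1.04, limma adjusted p = 0.374), from 25 fragments against 4, and 0.72 without db/db-GABP-KD 1 (adjusted p = 0.380).

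For the other 4 genes that passed the filter without db/m-GABP-OE libraries the intervals of the difference spanned 0. They ran from -1.75 to 1.07 for Jchain, from -1.38 to 0.76 for Ccl21a and from -0.89 to 1.30 for Ccl19. For Cd79a, found as 1 fragment in db/db-GABP-KD and 7 in db/db-veh, it ran from -1.11 to 0.40. The db/db-GABP-KD and db/db-veh libraries held 2 and 1 fragments of Cd79b, 4 and 6 of Cd4, and 8 and 15 of Cd3g. Of the marker lists 0 genes were called as deposited, and after scaling 1 was, the loop of Henle transporter Slc12a1 (log2 fold change -2.29, limma adjusted p = 0.0232). Macrophage and monocyte genes summed to 48.7 to 90.9 FPKM in db/db-GABP-KD and 15.0 to 28.7 in db/db-veh, without overlap as deposited and with 0 of 13 called. After scaling these groups overlapped, at 28.42 to 99.1 against 27.63 to 31.03.

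**Figure D4:**
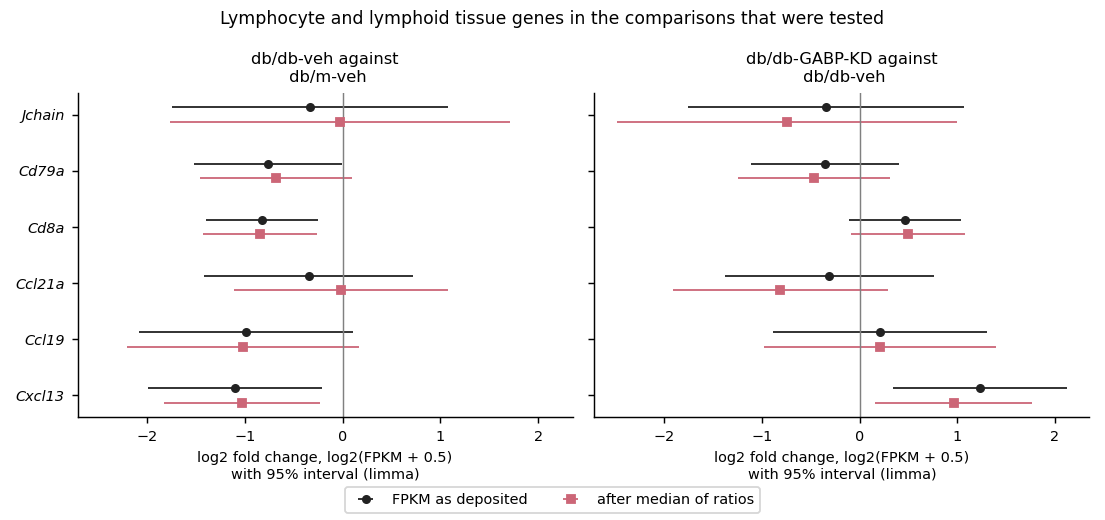
Log2 fold change on the log2(FPKM + 0.5) scale (horizontal axes) with its 95% interval from limma for the 6 genes that passed the filter without db/m-GABP-OE libraries, between the vehicle groups (left, db/db-veh minus db/m-veh) and for GABP-KD (right, db/db-GABP-KD minus db/db-veh), from FPKM as deposited (circles) and after median of ratios scaling (squares). The intervals of Cd8a and Cxcl13 lay below 0 on the left and that of Cxcl13 lay above 0 on the right under both scalings, and 0 of the 6 genes passed the adjusted threshold in either comparison.

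The order of the groups by mean FPKM put db/m-GABP-OE first for 9 of the 10 genes, all but Cd79b, where db/m-veh was first. The first and second groups did not overlap for 7 of these, and did for Cd8a and Cxcl13, where 11.2% of the genes tested had db/m-GABP-OE first and apart from the second group. That contrast chose the genes, and nothing is read from the count. The first and second groups of Cd79b overlapped as well. Below the first place, 1 pair of neighbours did not overlap, db/m-veh above db/db-veh for Cxcl13.

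The genes whose pattern was most like the 3 chosen ones were found by Pearson correlation over 12 libraries, on log2(FPKM + 0.5) after median of ratios scaling, among about 10677 genes with a mean FPKM of at least 0.5. The libraries share groups and depth, and the values are descriptions without a test. Nearest to Jchain were Tgtp2 (r = 0.9495), Apol9b (0.942) and Ifi207 (0.941). Tgtp2, an interferon-induced GTPase, was at 1.95 ± 0.607 FPKM (SD, n = 3) in db/m-GABP-OE, where db/m-veh had 0.508 ± 0.466. Among the genes near to Ccl21a were the extracellular matrix gene Mfap4 (0.925) and Otulinl (0.924). Mfap4 was at 10.9 ± 4.27 FPKM in db/m-GABP-OE, where db/m-veh had 0.904 ± 0.562. Nearest to Cd4 were the aminotransferase gene Bcat1 (0.958), the myosin Myo5a (0.958) and Retnla (0.951). Retnla, a marker of alternatively activated macrophages, was at 5.25 ± 2.84 FPKM in db/m-GABP-OE and listed at 0 in the other 9 libraries. Among the 10 genes themselves, r with Jchain was 0.929 for Cd4, 0.896 for Cd3g, 0.753 for Cd3e, 0.731 for Cd79a and 0.729 for Ccl21a. It was 0.709 for Ccl19, 0.478 for Cd8a, 0.295 for Cxcl13 and 0.193 for Cd79b. Jchain, Cd4 and Ccl21a were chosen for their height in db/m-GABP-OE, so a high r among them is partly fixed by that choice.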

How the data were processed

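Messenger RNA of mouse kidney was measured in 12 libraries, 3 in each of 4 groups, which were taken from the sample titles. The values are FPKM, as the authors deposited them. Per the submitters' processing notes HTSeq and GRCm39 were used (no versions named), while aligner, annotation and strand setting are not stated in the sources at hand. With GENCODE M21 exon lengths (GRCm38), whole fragments were recovered from the deposited FPKM in every library for 21474 of the 21846 genes that had a length, at a tolerance of 0.05 fragments. Positions are therefore those of GRCm38, and why the notes name another build was not resolved. Symbols were found for 21795 of 21899 genes.

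A gene was tested where its FPKM reached 0.3 in 3 or more libraries. The test was limma 3.58.1 (R 4.3.3) on log2(FPKM + 0.5), a scale that understates the change of low genes, with 1 mean for each group, all 12 libraries, a variance trend and two-sided p adjusted by Benjamini-Hochberg (threshold 0.05). Alternatives were pseudocounts 0.1 and 1, no filter, median of ratios scaling, an equal sum over nuclear genes, no trend, voom on recovered fragments, the replicate number as a block and each library left out. Dropping db/db-GABP-KD 1 after scaling was added after seeing the data. Exact intervals are at 95%, a count of 0 allows up to 3 fragments, and both concern counting error.

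The 10 genes and the 14 marker lists were chosen with earlier results of these data known. Named genes are the 10, Ptprc, Ms4a1, Ccr7 and Cxcr5, and from each list and comparison up to 3 called genes of smallest adjusted p or, with none called, the 2 of largest fold change. Not all of these are printed, and some genes are not reported here. Ltb, Nkg7, Lyve1, Prox1, Pdpn, Vegfc, Prdm1 and a few others were also named, some after their values were seen. The remaining steps used Python 3.11.15 (pandas 2.3.3; numpy 2.4.6; scipy 1.17.1) and, for the plots, matplotlib 3.10.9.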

Additional observations from a re-analysis of the deposited data

How the results depend on the processing

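In both tested comparisons 0 of the 9 genes were called under each alternative run. Of the 9, Cd79b, Cd4 and Cd3g passed the filter only with the help of db/m-GABP-OE libraries. They held 1 to 16 fragments in each group compared, so nothing is read from their lack of a call, and 6 genes are left. The planned quasi-likelihood test on recovered fragments was not run. Counts over all genes moved more. Between the vehicle groups 12 genes were called, and 2 with no filter, 22 after median of ratios scaling, 35 with an equal sum over nuclear genes, 5 with voom, 2 (without db/db-veh 1) to 48 (without db/db-GABP-KD 1) with each library left out, and 52 after scaling without db/db-GABP-KD 1. For db/m-GABP-OE 245 were called, and 62 with pseudocount 0.1, 27 after scaling, 15 with the equal nuclear sum, 123 with no trend, 62 with voom, 39 (without db/m-veh 3) to 559 (without db/db-GABP-KD 1) with each library left out, and 77 after scaling without db/db-GABP-KD 1. For db/db-GABP-KD 0 were called, and 1 with no filter, 5 after scaling, 6 with the equal nuclear sum, 0 to 4 with each library left out and 11 after scaling without db/db-GABP-KD 1. After scaling, 5 rather than 8 of the 10 genes lay above every db/m-veh library in db/m-GABP-OE. The cause of these shifts was not tested.

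Small log2 fold changes also changed sign, none of them called. With the equal nuclear sum the vehicle groups gave 0.25 for Jchain, 0.074 for Cd4 and 0.29 for Ccl21a, db/m-GABP-OE gave -0.013 for Cd8a and db/db-GABP-KD gave -0.10 for Cd79b. The last was -0.057 after scaling and -0.14 after scaling without db/db-GABP-KD 1. With each library left out in turn, the difference between the vehicle groups ran from -1.25 to 0.42 for Jchain, -0.18 to 0.040 for Cd4, -0.0035 to 0.23 for Cd3g and -0.84 to 0.21 for Ccl21a. The db/m-GABP-OE difference ran from -0.52 to 0.25 for Cd79b. The db/db-GABP-KD difference ran from -1.10 to 0.57 for Jchain, -0.080 to 0.14 for Cd79b, -0.16 to 0.0059 for Cd4, -0.87 to 0.19 for Ccl21a and -0.15 to 0.55 for Ccl19.

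The replicate number did not pair the libraries (18 pairs of the same number, r from -0.446 to 0.345, 4 above 0.1, and 5 of 12 libraries closest to their own number). With it as a replicate block 13 genes were called between the vehicle groups, 277 for db/m-GABP-OE and 0 for db/db-GABP-KD, and 0 of the 9 genes. With 1 to 46 fragments of Cd79a, Cd79b, Cd4, Cd8a, Cd3e, Cd3g, Ccl19 or Cxcl13 in each vehicle group, depth limits what could be detected for these genes.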
